A study of Mus musculus with 6 samples.

Results

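The distal part of mouse forelimb buds lacking RING1A and RING1B was compared with the distal part of control buds at E10.5. The comparison rests on 2 of the 6 arrays of the study, 1 for each genotype, and 11656 of 18193 genes represented on the array could be compared. The double knockout (dKO) has the genotype Prx1-Cre; Ring1A-/-; Ring1Bfl/fl, in which Prx1-Cre deletes Ring1B in limb mesenchyme and not in the overlying ectoderm. The control is labelled Ring1A-/-, although its description says wild type and the series design speaks of a Ring1A knockout. By the genotype labels both groups therefore lack Ring1A and differ in Ring1B and the Cre transgene. Both are of the CD1 strain and received no retinoic acid (RA). The proximal parts of dKO and control buds gave 1 further array each. The last pair of arrays came from the proximal and distal parts of wild type CD1 buds exposed to all-trans RA, which the mother received by gavage (100 mg/kg) at E10.25. The sources used here do not give the number of embryos behind an array or where the buds were cut. With 1 array per group there is no replicate check, so differences are described by their size and no p-value is given. A part of the bud cut nearer the body cannot be told apart from a difference of genotype, and in bulk tissue fewer cells of a type cannot be told apart from less RNA per cell.

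RING1A and RING1B supply the ubiquitin ligase activity of Polycomb repressive complex 1 (PRC1), which marks histone H2A at silent developmental genes. In the early limb bud, RA signalling and the MEIS homeodomain factors mark the proximal region next to the body wall. At the tip, the apical ectodermal ridge secretes FGFs, the posterior mesenchyme secretes Sonic hedgehog (SHH), and the mesenchyme-derived BMP antagonist Gremlin1 links both signals. The retinoid-degrading enzyme CYP26B1 keeps RA low distally. The study asks how RING1 proteins and RA set the proximal and distal regions of the forelimb bud, and whether this involves repression of Meis2.

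Values are array signals on a linear scale, and the median signal of each array was taken as its floor. The floor was 76.1 in distal dKO, with 11370 genes above it, and 59.5 in distal control, with 11148 genes above it. Genes at the floor on both arrays of a pair were not compared. A fold change in which 1 array is at its floor is a lower bound where the signal of the other array exceeds that floor. For genes at the floor in distal dKO with a control signal between 59.5 and 76.1, the positive sign is set by the higher dKO floor. Xist had signals of 3299 in distal dKO and 3017 in distal control, and the Y-linked Eif2s3y was below the floor on both. Across the 11656 genes, the log2 signals of both distal arrays had a Pearson correlation of 0.97, a description over genes that are not independent of each other. Ring1, which encodes RING1A, had signals of 578 in distal dKO and 968 in distal control, a log2 difference of -0.74. Rnf2, which encodes RING1B, had 1887 in distal dKO and 2070 in distal control (-0.13), and a second probe set of Rnf2 gave 0.00. The sources used here do not place these probes relative to the deleted segments, and the genotype label could not be checked by them.

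Genes that were higher in distal dKO outnumbered those that were lower. At 2-fold or more, 628 genes were higher (5.39% of those compared) and 61 were lower (0.523%). The higher genes were mostly dim in control: their median signal was 270 in distal dKO against 85.3 in distal control, and 215 of the 628 were at the floor in the control array. The lower genes were brighter in control, with a median of 168 in distal dKO against 569 in distal control, and 9 of the 61 were at the floor in dKO. The median difference of all compared genes was 0.01. Dividing each array by its own median shifted that value by -0.36, after which 325 genes were higher and 192 lower, and quantile normalization gave 425 and 92. Thus the split between higher and lower genes depends on the scaling, and differences below are on the deposited scale unless stated otherwise. Of the 628 higher genes, 166 had further probe sets, and 225 of those 226 probe sets differed in the same direction. All 18 further probe sets of 13 lower genes did so too. Fewer reached 2-fold, 112 of the 226 (49.6%) for higher genes and 13 of the 18 (72.2%) for lower genes.

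The share of genes past 2-fold depended on how bright they were. Among 1147 genes with a mean signal over the 6 arrays under 100, 13.9% were higher in dKO, and among 1362 genes between 100 and 200, 18.6% were higher. The share was 2.10% of 2091 genes between 500 and 1000 and 0.181% of 2768 genes at 2000 or more. The median differences of these 4 classes were 0.41, 0.30, -0.04 and -0.04, in that order, so the dim classes lay above 0 as a whole. Floors were unequal, at 76.1 in distal dKO and 59.5 in distal control, and their part in these shares was not tested. Lower genes made up 24 of the 2071 genes between 200 and 500, the largest number in any of the 6 signal classes. The classes were set after the values were seen.

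**Figure D1:**
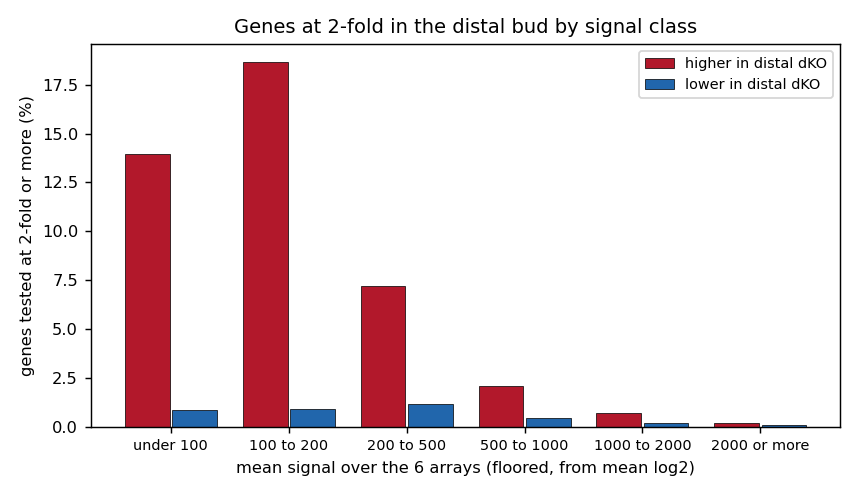
Percent of compared genes that were 2-fold or more higher or lower in distal dKO than in distal control (vertical axis), in 6 classes of mean signal over the 6 arrays (horizontal axis). Higher genes make up 18.6% of the class between 100 and 200 and 0.181% of the brightest class.

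The promoters of 4 genes at the ends of these differences are shown for reference beside their values below. Zic1 and Irx3 were among the genes with the largest positive differences in distal dKO, and Fgf4 and Cyp26b1 among those with the most negative. Each sequence is the 300 bases that run from 250 before to 50 after the first listed start site in RefSeq (GRCm38.p6), 5′ to 3′ on the gene's strand, and the capitals mark CG dinucleotides. The Zic1 window is chr9:91365719-91366018 (- strand), the Irx3 window chr8:91801605-91801904 (- strand), the Fgf4 window chr7:144861136-144861435 (+ strand) and the Cyp26b1 window chr6:84593761-84594060 (- strand).
Zic1: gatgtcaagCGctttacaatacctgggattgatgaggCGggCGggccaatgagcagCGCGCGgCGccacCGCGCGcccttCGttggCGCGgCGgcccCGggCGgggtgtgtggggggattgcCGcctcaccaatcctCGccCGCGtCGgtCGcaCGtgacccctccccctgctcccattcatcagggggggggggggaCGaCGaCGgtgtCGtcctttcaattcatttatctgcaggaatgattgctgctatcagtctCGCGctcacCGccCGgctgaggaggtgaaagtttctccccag
Irx3: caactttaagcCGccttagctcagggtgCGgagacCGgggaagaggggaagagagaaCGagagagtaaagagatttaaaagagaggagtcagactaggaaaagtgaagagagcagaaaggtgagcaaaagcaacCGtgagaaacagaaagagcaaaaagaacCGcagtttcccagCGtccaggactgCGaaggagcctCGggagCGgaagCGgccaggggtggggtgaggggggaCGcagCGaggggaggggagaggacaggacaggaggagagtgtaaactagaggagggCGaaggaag
Fgf4: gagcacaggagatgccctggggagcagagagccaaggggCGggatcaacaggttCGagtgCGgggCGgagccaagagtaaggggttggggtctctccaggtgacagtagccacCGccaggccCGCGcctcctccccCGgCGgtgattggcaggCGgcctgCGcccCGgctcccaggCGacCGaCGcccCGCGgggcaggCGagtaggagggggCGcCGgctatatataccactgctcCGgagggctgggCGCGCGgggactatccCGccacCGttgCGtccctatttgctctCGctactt
Cyp26b1: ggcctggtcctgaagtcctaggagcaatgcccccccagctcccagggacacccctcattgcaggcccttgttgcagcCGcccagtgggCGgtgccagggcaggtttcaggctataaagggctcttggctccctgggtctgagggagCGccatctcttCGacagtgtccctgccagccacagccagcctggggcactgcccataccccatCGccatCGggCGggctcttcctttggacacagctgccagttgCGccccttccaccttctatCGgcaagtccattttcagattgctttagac
The Zic1 window holds 31 CG dinucleotides, the Irx3 window 14, the Fgf4 window 28 and the Cyp26b1 window 9, against a median of 21 over 9441 compared genes with a promoter entry. Among the higher and among the lower genes, 1 window each was above that median and 1 below.

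Genes of the proximal limb were higher in distal dKO in 5 of 10 measured cases and lower in 1, with a median log2 difference of 0.80 against 0.01 for all genes, of which 5.39% were higher. Of the 8 above the floor in distal control, 3 were higher. Irx3, an Iroquois homeobox gene of the proximal and anterior limb whose promoter is shown above, had a signal of 1367 in distal dKO and 160 in distal control, which is 8.52-fold higher. That distal dKO signal was 67.7% of the proximal control signal, against 7.95% for distal control. Its neighbour Irx5, which acts together with Irx3 in limb patterning, had 143 in distal dKO and was at the floor in distal control, at least 2.40-fold higher. In the proximal pair these genes differed little, with log2 differences of 0.23 for Irx3 and 0.19 for Irx5.

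The MEIS genes encode homeodomain cofactors that specify the proximal limb. Meis1 had a signal of 582 in distal dKO and 202 in distal control, 2.89-fold higher, and a second probe set gave a log2 difference of 1.62 against 1.53 for the one used. Meis2 had 2235 in distal dKO and 1094 in distal control, 2.04-fold higher, and its other 3 probe sets gave log2 differences of 1.27, 1.49 and 1.32. In distal dKO, Meis1 thereby stood at 94.7% and Meis2 at 76.0% of the proximal control signal, while distal control stood at 32.8% and 37.2%. Meis3 had 174 in distal dKO and was at the floor in distal control, at least 2.93-fold higher. In the proximal pair Meis1 differed by 0.21 and Meis2 by 0.23, and Meis3 by 1.52. After division by array medians, Meis2 was at 0.68 and Irx5 at 0.91, both under 2-fold, while Irx3, Meis1 and Meis3 stayed past it. The distal control array enters both the distal difference and the distal control percentage, so these are not separate evidence.

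Other genes of the proximal list did not follow this pattern. Shox2, a homeobox gene needed for the upper limb skeleton, had 1943 in distal dKO and 4111 in distal control, a log2 difference of -1.08. It was lower in proximal dKO as well, with 1914 there and 4135 in proximal control. Tbx15, a T-box gene, was at -0.75, and at -1.11 after division by array medians. Tbx18 was at 0.57, Emx2 at 0.57 and Pbx3, which encodes a MEIS partner, at 0.31, all under 2-fold. In control buds, the proximal part differed from the distal part by 0.01 for Shox2 and 0.05 for Tbx15. These 2 list members were thus not proximal by the control arrays, unlike Tbx18 (1.35), Emx2 (0.52) and Pbx3 (0.49). Within the list, MEIS and Iroquois genes were higher and Shox2 lower, in the same array.

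**Figure D2:**
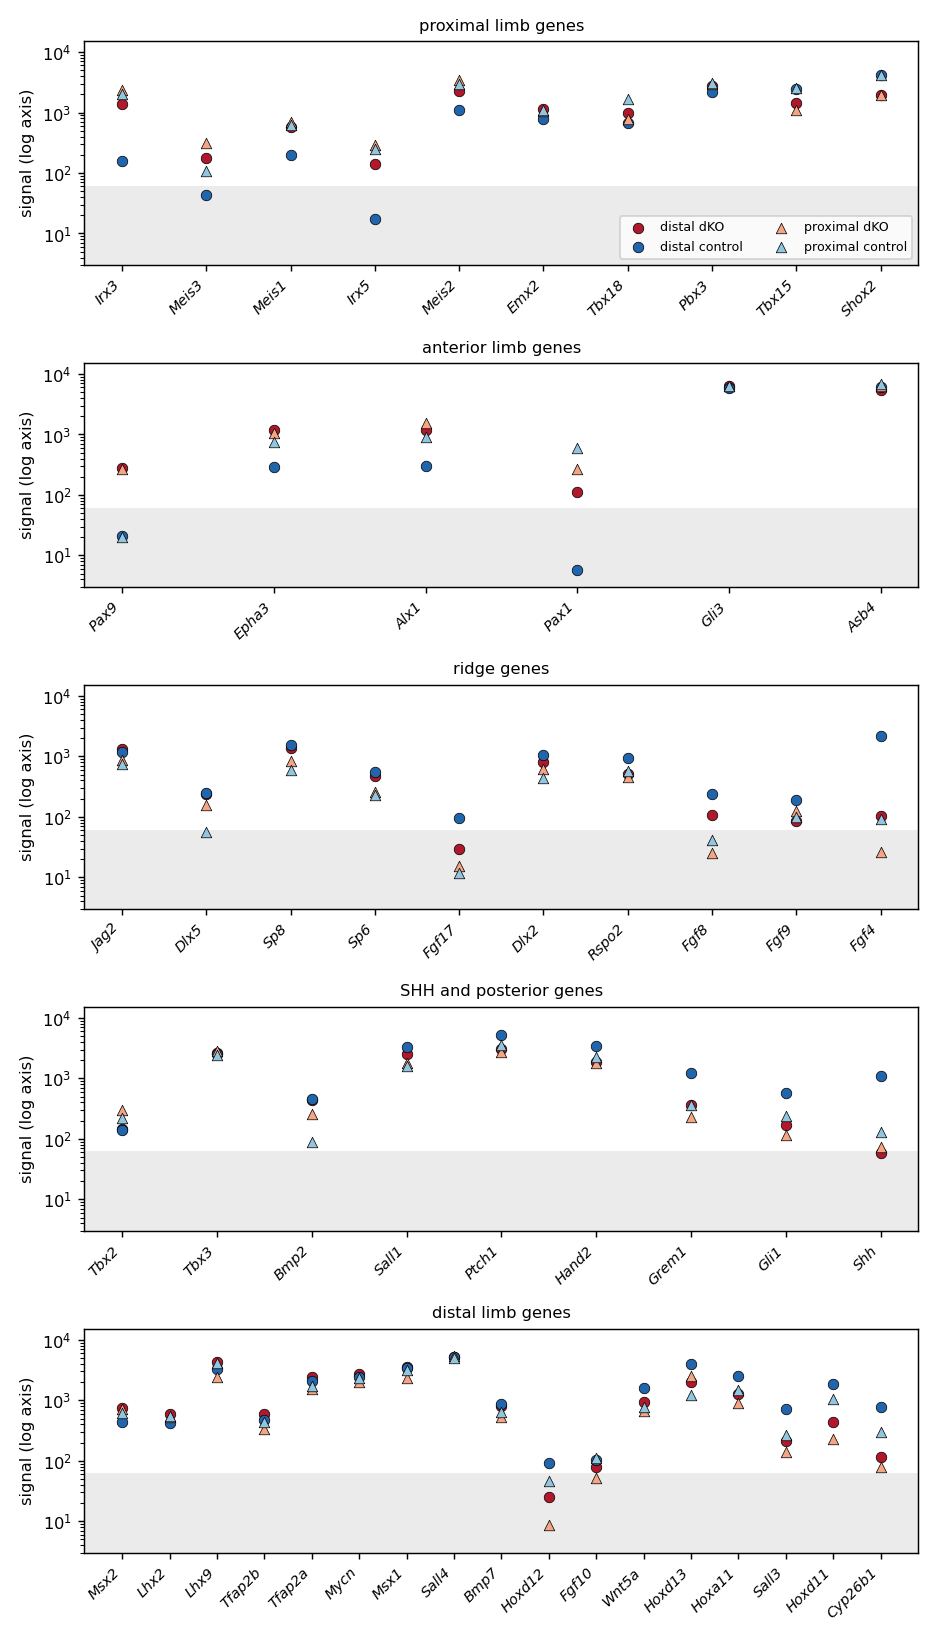
Signals (log axis) of members of the proximal, anterior, ridge, SHH and posterior, and distal limb lists on the distal dKO, distal control, proximal dKO and proximal control arrays, 1 point per gene and array, with the grey band marking signals below the distal control floor of 59.5. Irx3, Meis1 and Alx1 are high on every array but distal control, and Fgf4 is high on the distal control array alone.

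Anterior limb genes were higher in 3 of 6 measured cases and lower in 0, with a median of 1.44, against 5.39% higher of all genes. Of the 4 above the floor in distal control, 2 were higher. Alx1, an aristaless-type homeobox gene of anterior proximal mesenchyme, had 1194 in distal dKO and 306 in distal control, 3.89-fold higher. Epha3, an ephrin receptor gene, had 1179 in distal dKO and 290 in distal control, 4.07-fold higher. Both exceeded their proximal control signal, at 133% of it for Alx1 and 160% for Epha3. Pax9, a paired-box gene of anterior mesenchyme, had 280 in distal dKO and was at the floor in distal control, at least 4.71-fold higher. It was also at the floor in proximal control and had 273 in proximal dKO, a bound of 2.09. Pax1 had 113 in distal dKO and was also at the floor in distal control, a bound of 0.92 that is under 2-fold. Gli3, the main repressor of SHH targets in the anterior limb, differed by 0.10, and Asb4 by -0.15. All 3 genes at 2-fold remained so after division by array medians. Pax1 and Pax9 are also sclerotome genes and are on the somite list below.

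Single members of the WNT, SHH transduction and retinoid lists were higher. Sfrp1, a secreted WNT antagonist, had 1820 in distal dKO and 392 in distal control, 4.65-fold higher, and reached 90.3% of the proximal control signal. Cdon, a cell-surface SHH co-receptor, had 967 in distal dKO and 327 in distal control, 2.95-fold higher, and the related co-receptors Gas1 and Boc were at 0.71 and 0.48. Rarb, an RA receptor gene that is itself induced by RA, had 380 in distal dKO and 117 in distal control, 3.25-fold higher. Each of Sfrp1, Cdon and Rarb differed by less in the proximal pair, at 0.57, 0.16 and 0.07. Of the lists these genes come from, the WNT list had 2 of 19 members higher and 0 lower (median 0.33), the second being the antagonist gene Dkk3 at 1.04. The SHH transduction list had 1 of 10 higher and 0 lower (median 0.10). The retinoid list had 2 of 10 higher and 1 lower (median 0.06), with Rbp4, a retinol carrier gene, at 1.86. After division by array medians the WNT list had 1 member higher and 2 lower, so no direction holds for it as a list.

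Part of the muscle precursor and neural markers were higher in distal dKO, and those of other cell types gave mixed values. Of those above the floor in distal control, 2 of 3 muscle precursor and 2 of 4 neural markers were higher. Of all compared genes 5.39% were higher. Of 7 muscle precursor markers, 4 were measured and 3 were higher, and their summed signal was 2483 in distal dKO and 1256 in distal control. Pax3, which marks muscle precursors entering the limb from the somites, had 775 in distal dKO and 218 in distal control, and Lbx1 had 456 in distal dKO and 227 in distal control. The defining muscle genes Myf5, Myod1 and Msc were at the floor on both arrays. Of 9 neural and Schwann cell markers, 5 were measured and 3 were higher, among them Nefl with 762 in distal dKO and 143 in distal control. The neuronal marker Tubb3 went the other way, with 182 in distal dKO and 266 in distal control (-0.54). Elavl4 was at the floor in dKO, and Sox10 was at the floor on both arrays. The neural sum was 1428 in distal dKO and 620 in distal control. All 10 endothelial markers lay above 0 and 0 reached 2-fold, with sums of 4759 in distal dKO and 3393 in distal control. Of these, Cdh5 was at the floor in dKO (74.1) against 70.8 in distal control, so its 0.10 was set by the dKO floor. The endothelial median was 0.45, and 0.09 after division by array medians. Of 8 erythroid markers 2 were higher. Of 6 somite markers 2 were higher, Pax9 and Foxc2, and 1 was lower, Meox2, with sums of 1904 in distal dKO and 2003 in distal control. Of 4 macrophage markers 0 passed 2-fold (median -0.09), and of 2 mesothelium markers 1 was higher, Wt1. The part of these cell types in the higher signals of proximal genes was not tested. General limb mesenchyme genes, such as Prrx1 at -0.26 and Twist1 at 0.10, had 0 of 10 members past 2-fold and a median of -0.25.

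Genes of the apical ectodermal ridge lay below 0 in 9 of 10 measured cases. At 2-fold or more 3 were lower and 0 were higher, against 0.523% lower of all genes, and the median was -0.36. Among them Fgf4, which encodes an FGF that depends on SHH and Gremlin1 and whose promoter is shown above, had a signal of 104 in distal dKO and 2141 in distal control. This was 20.5-fold lower, the most negative difference measured among all compared genes. The other Fgf4 probe sets, at the floor in dKO, gave bounds of -3.92 and -3.88. Fgf8, expressed along the whole ridge and needed for outgrowth, had 109 in distal dKO and 238 in distal control, a log2 difference of -1.13. Fgf9 had 85.8 in distal dKO and 192 in distal control (-1.16), and a second probe set, at the floor in dKO, gave a bound of -0.62. These 3 ridge FGF genes were thus dim in distal dKO, and Fgf17 was at the floor in dKO with a bound of -0.34.

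Ridge genes other than FGFs differed less. Rspo2, which encodes a WNT potentiator of the ridge, had 504 in distal dKO and 932 in distal control, a log2 difference of -0.89, or -1.24 after division by array medians. Dlx2 was at -0.38, Sp6 at -0.23, Sp8 at -0.17 and Dlx5 at -0.05, and the Notch ligand gene Jag2 was at 0.14. Dlx6 and En1 were at the floor on both arrays. The 14 general ectoderm markers had summed signals of 22240 in distal dKO and 22229 in distal control, with 1 higher (Krt19, at 1.11) and 0 lower. Of these markers 9 lay below 0, among them Epcam at -0.37, Krt5 at -0.36, Cdh1 at -0.35 and Trp63 at -0.31, and 5 above, among them Krt8 at 0.32 and Krt18 at 0.18. The ectoderm median was -0.10, and -0.46 after division by array medians. The part of the ectoderm in the lower FGF signals was not tested. With a pseudocount of 50 in place of the floor, Fgf4 alone of the ridge list stayed past 2-fold.

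The SHH pathway and posterior genes lay below 0 in 7 of 9 measured cases, with a median of -0.79. At 2-fold 3 were lower and 0 higher, against 0.523% lower of all genes. Shh itself, the posterior signal, was at the floor in distal dKO (57.6) and had 1099 in distal control, at least 14.4-fold lower. Its target Gli1 had 172 in distal dKO and 568 in distal control, 3.30-fold lower. Grem1, which encodes Gremlin1, had 368 in distal dKO and 1208 in distal control, 3.28-fold lower. Ligand, target and antagonist were low together in the dKO array.

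Other members of this list were under 2-fold. Ptch1, the SHH receptor and a target of the pathway, had 3029 in distal dKO and 5253 in distal control, a log2 difference of -0.79. Hand2, the factor that activates Shh in posterior mesenchyme, had 1864 in distal dKO and 3413 in distal control (-0.87), and a second probe set gave -1.06. Both passed 2-fold after division by array medians, at -1.15 for Ptch1 and -1.23 for Hand2. Sall1 was at -0.38, Bmp2 at -0.10, Tbx2 at 0.05 and Tbx3 at 0.04, and Hhip was at the floor on both arrays. A second, dimmer probe set of Sall1, at the floor in dKO, gave a bound of -1.07. By the probe sets used, Tbx2 and Tbx3 thus differed by 0.05 or less while Shh was not above the floor. Further probe sets of Tbx3 gave 0.13 and 0.04. Bmp2 had 261 in proximal dKO and 89.7 in proximal control.

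Genes that respond to FGF signalling all lay below 0. Of 9 measured members 1 was lower at 2-fold and 0 higher, with a median of -0.47, against 0.523% lower of all genes. Spry1, a feedback inhibitor of FGF signalling, had 243 in distal dKO and 553 in distal control (-1.19). Spry4 was at -0.68, Il17rd at -0.54, Spry2 at -0.50, Spred2 at -0.47, Dusp6 at -0.23, Etv4 at -0.22, Etv5 at -0.19 and Spred1 at -0.13. The 5th percentile of all compared genes was -0.42, and Dusp6, Etv4, Etv5 and Spred1 were nearer 0 than that. The signal classes of 500 or more had medians between -0.06 and -0.04. The same 9 genes had a median of -0.36 in the proximal pair, where 1 was lower. In the BMP list, 1 of 14 members was lower, the antagonist gene Grem1, and 0 were higher (median 0.05), with Bmp4 at -0.67 and Msx2 at 0.80. The dorsoventral genes Lmx1b and Wnt7a were both under 2-fold. Of 3 measured FGF receptor genes 1 was higher, Fgfr3, at 1.17.

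Distal limb genes were lower in 4 of 17 measured cases and higher in 0, with a median of -0.14, against 0.523% lower of all genes. Cyp26b1, whose promoter is shown above, had 117 in distal dKO and 780 in distal control, 6.69-fold lower. Hoxd11, a posterior and distal Hox gene, had 439 in distal dKO and 1875 in distal control, 4.27-fold lower. Sall3 had 214 in distal dKO and 724 in distal control, 3.38-fold lower. A second probe set of Sall3, at the floor in dKO, gave a bound of -0.95. Hoxa11 had 1250 in distal dKO and 2561 in distal control, 2.05-fold lower. Cyp26b1 was low in the array in which the RA receptor gene Rarb was high, and a link between them was not tested. In the proximal pair Cyp26b1 was at -1.93 and Rarb at 0.07. The RA-synthesizing enzyme genes Aldh1a1, Aldh1a2 and Aldh1a3 were at the floor on both distal arrays.

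The other genes of the distal list were under 2-fold. Hoxd13, the Hox gene of the digit region, had 2030 in distal dKO and 4035 in distal control, a log2 difference of -0.99. It was higher proximally, with 2521 in proximal dKO and 1247 in proximal control (1.02). Wnt5a, a ligand of the distal mesenchyme, was at -0.79, with further probe sets at -1.32, -0.83 and -0.47. Fgf10 was at -0.39, Bmp7 at -0.14 and Sall4 at -0.01. Msx1 was at 0.07, Mycn at 0.15, Tfap2a at 0.18, Tfap2b at 0.34, Lhx9 at 0.40, Lhx2 at 0.48 and Msx2 at 0.80. In control buds Msx2, Lhx2 and Lhx9 were higher in the proximal than in the distal part, by 0.52, 0.39 and 0.37. Hoxd13 and Wnt5a were lower there, by -1.69 and -1.08. Hoxd12 was at the floor in dKO with a bound of -0.27, and Hoxa13 and Evx2 were at the floor on both arrays. With each array divided by its median, 6 of the 17 measured distal genes were lower, Hoxd13 at -1.35 and Wnt5a at -1.15 among them, and with the median over probe sets 5 were.

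The Hox clusters differed from each other. In HoxB 7 of 8 measured genes were higher and 0 lower (median 1.76), and in HoxC 6 of 7 were higher and 0 lower (median 1.37), against 5.39% higher of all genes. Hoxb1, Hoxb6, Hoxb13, Hoxc6 and Hoxc13 were compared only because they were above the floor in dKO. Of the genes above the floor in distal control, 4 of 5 in HoxB and 4 of 5 in HoxC were higher. In HoxA 1 of 8 was higher, Hoxa2 with a bound of 1.41, and 1 was lower, Hoxa11 (median 0.12). In HoxD 1 of 8 was higher, Hoxd1 with a bound of 1.66, and 1 was lower, Hoxd11 (median -0.25). After division by array medians HoxB had 6 and HoxC 4 members higher, and 0 were lower in either, while HoxA and HoxD each had 1 higher and 2 lower.

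Low-numbered HoxB and HoxC genes, which are expressed further towards the head, and high-numbered ones had unlike values in the proximal pair. Hoxb3 had 1116 in distal dKO and 179 in distal control, 6.23-fold higher, and reached 94.7% of proximal control. Hoxb5 had 844 in distal dKO and 226 in distal control, 3.74-fold higher, and Hoxb4 and Hoxc4 were at 1.56 and 1.66. In the proximal pair Hoxb3 was at 0.52, Hoxb4 at -0.13, Hoxb5 at -0.45 and Hoxc4 at -0.19. Hoxc5 was at 0.92 distally, under 2-fold, and at -1.05 proximally, with 597 in proximal dKO and 1240 in proximal control. Hoxb9, by contrast, had 646 in distal dKO and 97.4 in distal control, 6.63-fold higher, and differed by 2.83 in the proximal pair. Hoxc10, a hindlimb and lumbar gene, had 664 in distal dKO and 85.2 in distal control, 7.79-fold higher, with a bound of 3.09 in the proximal pair, where control was at the floor. Hoxc9 was at 1.87 distally and 2.83 proximally, and Hoxc8 at 1.15 distally and 2.11 proximally. The difference between the distal and proximal pairs was not tested, since each is 1 array against 1.

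**Figure D3:**
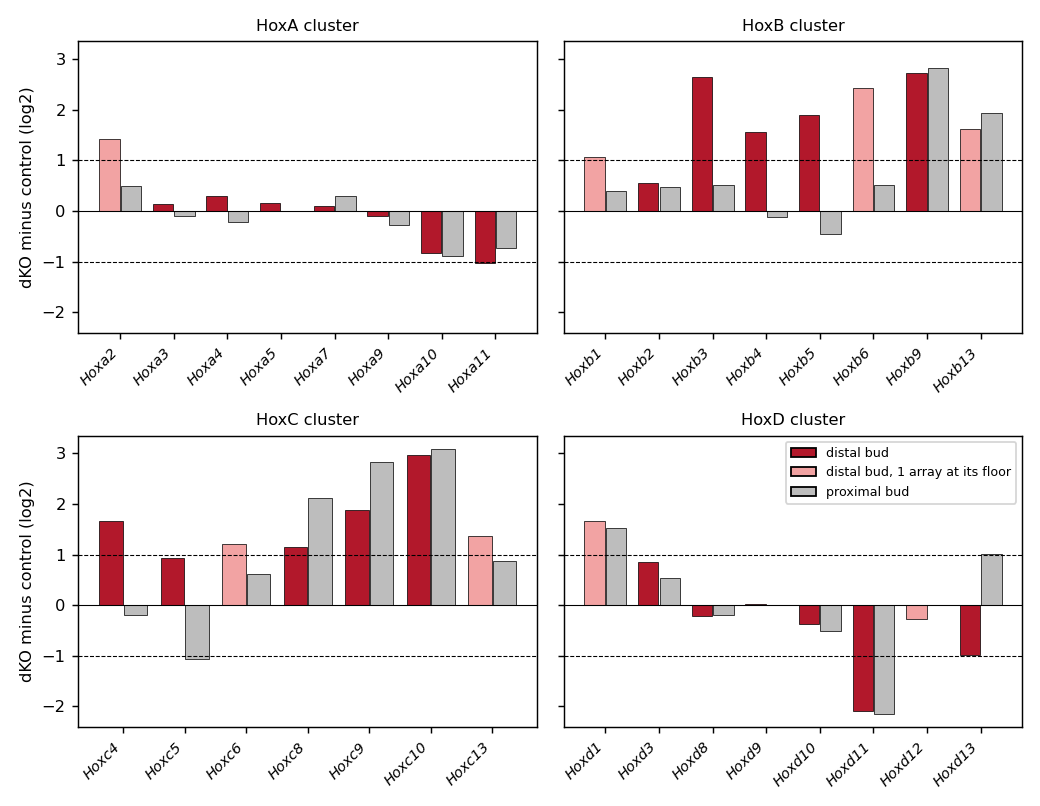
Log2 difference, dKO minus control, of Hox genes in the 4 clusters (vertical axis), with red bars for the distal pair, pale red where 1 distal array is at its floor, and grey bars for the proximal pair, and dashed lines at 2-fold. HoxB and HoxC genes are mostly above 0 distally, Hoxb4, Hoxb5, Hoxc4 and Hoxc5 are below 0 proximally, Hoxc5 past 2-fold, and Hoxd11 is below 0 in both.

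Against 5.39% of all genes, 3 of 4 measured hindlimb genes were higher and 0 lower (median 1.75). They were Hoxc10, Isl1 with a bound of 2.03 and Pitx1, a determinant of hindlimb identity, with a bound of 1.48, while Tbx4 was at 0.41. Of these genes Hoxc10 and Tbx4 alone were above the floor in distal control. Isl1 and Hoxc10 are on other lists too.

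Developmental regulators of other tissues, which are typical Polycomb targets, were higher in 19 of 27 measured cases and lower in 0. Their median was 1.23, and 5.39% of all genes were higher. A further 29 of the 56 genes on this list with a probe set were at the floor on both arrays, among them Sox2, Pax5 and Nkx2-1. Only 8 of the 27 were above the floor in distal control, and 4 of those 8 were higher, so most of the count comes from genes that could be measured only in dKO. Zic1, a zinc-finger gene of the dorsal neural tube whose promoter is shown above, had 2074 in distal dKO and was at the floor in distal control, at least 34.9-fold higher. Cdx2, a caudal homeobox gene of the gut and tail, had 629 in distal dKO and 85.5 in distal control, 7.36-fold higher. Gata2, a haematopoietic and endothelial regulator, had 673 in distal dKO and 179 in distal control, 3.76-fold higher. Pax6, an eye and brain regulator, had a bound of 2.27, En2, a midbrain gene, of 2.64, and Foxa1, an endoderm gene, of 2.11. Not every regulator followed, since Zic2 was at -0.93 and Gbx2 at -0.59. After division by array medians 11 were higher and 1, Zic2, was lower, and quantile normalization gave 11 higher and 0 lower.

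The remaining genes of this list at 2-fold had smaller differences. Bounds were 1.90 for Barx1, 1.80 for Six3, 1.66 for Pou3f2, 1.61 for Gata4, 1.24 for Gsc, 1.23 for Tlx1, 1.19 for Pou3f1, 1.12 for Nkx6-1, 1.11 for Sox1 and 1.07 for Tbx1. Sox17, an endoderm and endothelial gene, was at 1.21 and Sim2 at 1.27, both measured on both arrays. In the proximal pair Gsc was at 0.31 and Sim2 at 0.18. Pou3f2 had a bound of 1.78 and Barx1 of 2.10 there, since both were at the floor in proximal control.

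Over all genes measured above both floors, the largest positive difference was that of Fabp3, a fatty acid binding protein gene of muscle and heart, with 1699 in distal dKO and 109 in distal control, 15.6-fold higher. After it came Pou3f3 (3.24), St8sia3 (3.21), Irx3 (3.09), Hoxc10 (2.96), Galnt12 (2.91), Cdx2 (2.88), Hoxb5os (2.88), Eno2 (2.80), Ptger4 (2.77), Hoxb9 (2.73), Kdelr3 (2.69), Hoxb3 (2.64), Prkg2 (2.63) and Mlxipl (2.63). Fabp3 was at 3.50 and Pou3f3 at 3.18 in the proximal pair. Ptger4, a prostaglandin receptor gene, had 557 in distal dKO and 81.4 in distal control, and its proximal difference was 0.71. Among genes with a bound of 6-fold or more, the neuropeptide gene Tac1 had 429 in distal dKO and was at the floor in distal control (at least 7.21-fold), with 0.20 in the proximal pair. The others with such a bound were Zic1, Ina, Kcnd3, Foxl2os, Cgas, Cbr3, Trank1, Onecut2, Ddx43, Catsperz, Nrxn2, Pantr1, Postn, Rimkla, Lox, Rap1gap2, En2, Garem2 and Srrm3.

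Of the genes with the most negative differences, Mab21l2, a developmental regulator of eye and body wall, had 247 in distal dKO and 1808 in distal control, 7.31-fold lower. The connexin gene Gja3 had 227 in distal dKO and 1300.1 in distal control, 5.74-fold lower. Vcam1, an adhesion molecule gene, had 261 in distal dKO and 1015 in distal control, 3.89-fold lower, and its proximal difference was -0.63. Meox2, a muscle and somite homeobox gene, had 385 in distal dKO and 1271 in distal control, 3.30-fold lower. The others of the 15 lowest were Fgf4, Cyp26b1, Hoxd11, Sall3, Gli1, Saa2 (-2.68), Saa1 (-2.58), Gpx2 (-2.30), Mid1 (-2.16), Calml4 (-2.01) and 4930481B07Rik (-1.88). Saa1 and Saa2 encode near-identical acute-phase proteins, so their probe sets may not separate them.

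The proximal pair, which shares no array with the distal pair, gave 477 higher genes (4.11%) and 43 lower genes (0.371%). Of the 628 genes higher distally 338 were also higher proximally, which is 53.8% of the distal and 70.9% of the proximal list. Of the 61 lower distally 21 were lower proximally, 34.4% of the distal and 48.8% of the proximal list, among them Mab21l2, Cyp26b1, Hoxd11, Shox2, Gli1, Spry1, Meox2 and Gja3. Fgf4, Shh and Grem1 were not counted among them. Fgf4 and Shh were at the floor in proximal dKO, so their proximal values of -0.34 and -0.83 are bounds, against control signals of 92.7 and 130 there. Grem1 was at -0.61 proximally, with 234 in proximal dKO and 357 in proximal control. With division by array medians the shared genes were 186 higher and 32 lower. Mup10 was higher distally and lower proximally, and Rcsd1 the reverse. Across 11358 genes, the distal and proximal differences had a Pearson correlation of 0.71, a description over genes that share probes and scaling. The median proximal difference was 1.07 for the higher genes and -0.74 for the lower genes.

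**Figure D4:**
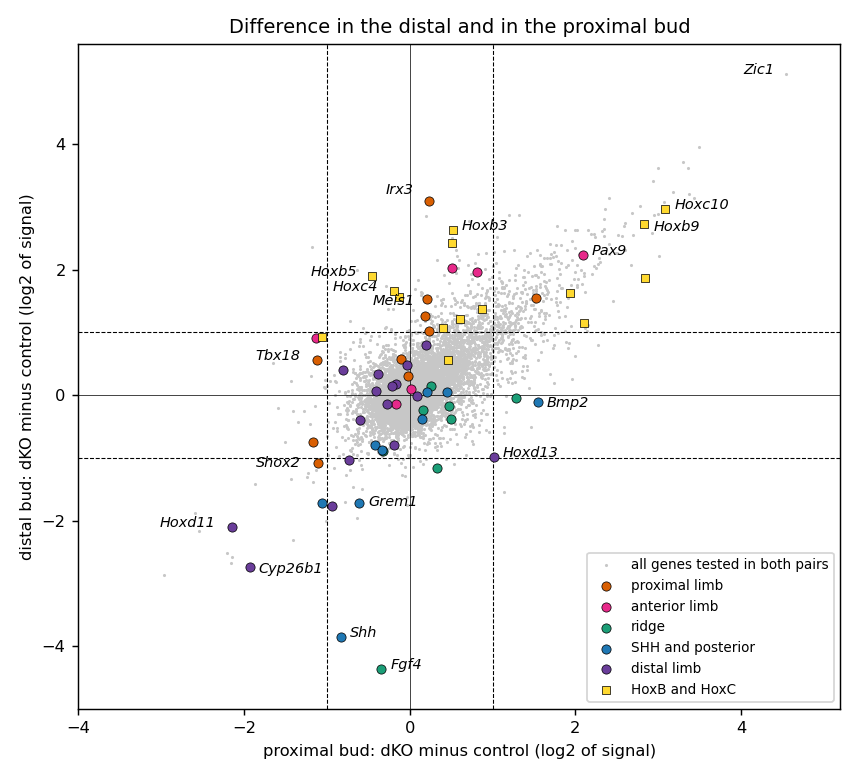
Log2 difference, dKO minus control, in the distal pair (vertical axis) and in the proximal pair (horizontal axis), 1 point per gene, with list members coloured and dashed lines at 2-fold, and values with an array at its floor are bounds. Zic1 and Hoxc10 are high in both pairs, Irx3, Meis1, Hoxb3 and Hoxb5 are high distally and near or below 1 proximally, and Fgf4 and Shh are lowest distally.

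The proximal or distal position of these genes was read from the RA-exposed pair, which shares no array with the distal comparison but does not give their position in an untreated bud. The control proximal array could be set only against the distal control array, which is already in use. At 2-fold, 510 genes were proximal (4.43%) and 710 distal (6.17%) in that pair. Of 489 proximal genes compared in the distal buds 108 were higher in dKO (22.1%) and 1 was lower (0.204%), with a median of 0.40. Of 692 distal genes 37 were higher (5.35%) and 24 lower (3.47%), with a median of 0.10. Of all genes compared in the distal buds, 5.39% were higher and 0.523% lower, so the share of higher distal genes was near that of all. Seen the other way, 24 of 56 lower genes were distal in the RA pair (42.9%) and 1 proximal (1.79%), against 6.24% and 4.41% of all 11098 genes. Of the 290 genes that were higher in distal dKO and were not counted as higher in proximal dKO, 227 were compared in the RA pair, where 63 were proximal (27.8%) and 17 distal (7.49%). Some of these 290 were not compared proximally. Of the 338 genes higher in both parts, 244 were compared in the RA pair, where 45 were proximal (18.4%) and 20 distal (8.20%). These sets were chosen after values were seen, RA itself alters proximal genes, and the RA arrays had Xist signals of 12.9 and 29.5 and Eif2s3y signals of 2783 and 3064, proximal first, unlike the other 4 arrays.

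Higher genes tended to lie beside each other in RefSeq gene order (GRCm38.p6) when compared genes alone were ordered. Genes that were not compared were skipped, so a neighbour here need not be the adjacent gene on the chromosome. Of the 628 higher genes 129 (20.5%) had a higher neighbour, against 1078 of 11006 other compared genes (9.79%). Without Hox genes the shares were 19.1% and 9.72%. The longest run had 7 genes, Hoxb13, Hoxb9, Hoxb5os, Hoxb6, Hoxb5, Hoxb3 and Hoxb4, and the next had 5, Hoxc13, Hoxc10, Hoxc9, Hoxc8 and Hoxc6. Both runs pass over genes that were not compared, such as Hoxb7, Hoxb8, Hoxc11 and Hoxc12. Outside Hox clusters the runs included Irx3, Crnde and Irx5, with Crnde at 2.15, and pairs such as Pantr1 and Pou3f3, Foxl2os and Foxl2, Dlk1 and Meg3, and Nefl and Nefm. Of the 61 lower genes 6 (9.84%) had a lower neighbour, against 0.994% of the others, in the pairs Hoxa11 and Hoxa11os, Dysf and Cyp26b1, and Saa1 and Saa2. With Hox genes left out, 4 of 58 (6.90%) had one, against 0.962%. These shares rest on 3 pairs at most, and the probe sets of Saa1 and Saa2 may not separate these genes.

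Promoter letters were counted in the window shown above. At least 15 CG dinucleotides were found in 290 of 449 promoters of higher genes (64.6%, 95% Wilson interval 60.1 to 68.9%), 21 of 47 of lower genes (44.7%, 31.4 to 58.8%) and 6935 of 9441 of all compared genes (73.5%). The intervals cover counting error only. Among 20 non-limb Polycomb targets with an entry 17 reached 15, with a median of 25.5. The MEIS motif TGACAG, read on both strands, was in 68 promoters of higher genes (15.1%), 10 of lower genes (21.3%) and 16.1% of all. The GLI motif GACCACCCA, on both strands, was in 0 of both sets and in 20 of all (0.212%). The TATA motif TATAAA, on both strands, was in 34 promoters of higher genes (7.57%), 10 of lower genes (21.3%) and 6.50% of all. A match is a description of letters in a short window and says nothing of binding.

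Genes of the Polycomb machinery and of the cell cycle were under 2-fold. Of 16 measured PRC1 genes, Ring1 and Rnf2 included, and of 10 PRC2 genes, 0 passed 2-fold in either direction, with medians of -0.01 and -0.13, with Cbx8 at 0.91, Bmi1 at 0.86 and Ring1 at -0.74. Of 9 Cdkn and p53 target genes 0 passed 2-fold, with Cdkn2a, a known Polycomb target, at a bound of 0.94 and Cdkn1a at -0.82. With each array divided by its median, Ring1 (-1.10), Cdkn1a (-1.18) and Pmaip1 (-1.13) were lower by over 2-fold. Of 14 proliferation genes 0 passed 2-fold (median -0.05). Of 7 cartilage genes 2 were higher and 0 lower (median 0.83), against 5.39% higher of all genes. They were Acan with a bound of 2.46 and Runx3 with a bound of 1.83, compared only because they were above the floor in dKO. Of the 5 cartilage genes above the floor in distal control 0 were higher, and the cartilage regulator Sox9 was at 0.83.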

How the data were processed

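RNA of E10.5 mouse forelimb bud parts was measured on 6 one-colour Affymetrix arrays. The deposited values are signal intensity on a linear scale, made by the authors with MAS5 per the submitters' processing notes. The sources used here do not give the version of MAS5, the table has no detection calls, and the mean signal without the lowest and highest 2% of probe sets is 499.9 on each array. The number of arrays, 1 per group, limits the precision.

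Of 45101 probe sets 64 controls were left out. The platform annotation gave 34945 a single gene symbol, 932 several and 9160 none, and 34741 matched the RefSeq table by gene ID. No name was taken from a probe set with several symbols. Signals below an array's median were set to it, log2 was taken, and the probe set with the highest mean over the 6 arrays represented each of 18193 genes. Genes were counted at 2-fold. No column was left out, and no test was run, since each group has 1 array.

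Genes named are list members at 2-fold, members of the proximal, anterior, ridge, SHH and posterior, and distal lists above both floors, the 15 highest and 15 lowest differences, bounds of 6-fold or more, PRC genes and cell type markers; other named genes were chosen after their values were seen. Members and lists were chosen with earlier results of these data known, and some genes are on more than 1 list. Alternatives were division by array medians, quantile normalization, a pseudocount of 50, a floor of 100, both arrays above the floor, and other choices of probe set. Promoters came from RefSeq and proportions have Wilson intervals. Python 3.11.15, numpy 2.4.6, pandas 2.3.3, scipy 1.17.1 and matplotlib 3.10.9 were used, and the scripts were tested on simulated data.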

Additional observations from a re-analysis of the deposited data

Results flagged for a closer look

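Among 109 named genes at 2-fold in the distal pair, 4 had the opposite sign in the proximal pair. Fgf9 was at -1.16 distally and 0.33 proximally. Hoxb4 was at 1.56 distally and -0.13 proximally. Hoxb5 was at 1.90 distally and -0.45 proximally, and Hoxc4 was at 1.66 distally and -0.19 proximally. All are log2 differences, dKO minus control, and all 4 proximal differences are under 2-fold. Each pair has 1 array per group, so the difference between the pairs was not tested.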

How the results depend on the processing

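No paired analysis was possible because each group has 1 array and shares only the number 1. After division by array medians, 325 genes were higher and 192 lower, 3 proximal limb genes were higher, 5 SHH and posterior genes lower, 186 higher and 32 lower genes were shared with the proximal pair, and 69.7% of promoters of higher genes had 15 CG dinucleotides or more. Quantile normalization gave 92 lower genes and 69.0% of promoters. A pseudocount of 50 left 1 ridge gene lower. A floor of 100 gave 3 proximal limb genes and 224 shared higher genes. With both arrays above the floor, 413 genes were higher, 3 of them proximal limb genes, and 189 were shared. The cause of these shifts was not tested, apart from the last, which compares fewer genes. Of 109 named genes at 2-fold, 75 stayed past it in every setting that gave a value, and 0 changed sign while past 2-fold. Dropping below 2-fold were 21 with division by medians, 17 with quantile normalization, 13 with the pseudocount, 24 with the fixed floor and 8 with the median over probe sets. Choosing the probe set on the 4 dKO and control arrays, an alternative added after the data were seen, dropped 0. No array can be left out, and dim genes near the floor have the least certain differences.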

Other observations

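These genes were picked after their values were seen, and are given as values alone. Among the genes higher in distal dKO, Tcfl5, known from the germ line, had 1319 in distal dKO and 223 in distal control, and differed by 2.22 in the proximal pair on the log2 scale. Tdrkh, a piRNA pathway gene, had 289 in distal dKO and 86.0 in distal control. The germ line genes Ddx43 and Catsperz were at the floor in distal control. Ddx43 had 482 in distal dKO and Catsperz had 466.

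The antigen presentation gene H2-Ab1 had 277 in distal dKO and 87.5 in distal control, H2-Q5 had 409 in distal dKO and 141 in distal control, and Tap1 had 198 in distal dKO and 95.8 in distal control. Cgas, a DNA sensor gene, had 635 in distal dKO and was at the floor in distal control, at least 10.7-fold higher. The imprinted genes Dlk1 and Meg3 had 4402 and 2351 in distal dKO, against 2026 and 1019 in distal control. Phlda2, also imprinted, had 535 in distal dKO and 92.6 in distal control.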
